A study of Rattus norvegicus with 15 samples.

Results

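The genes of the cholecystokinin and neurotensin systems were compared between neurons of 2 rat midbrain regions. Members were taken by gene symbol: the peptide genes Cck and Nts, the cholecystokinin receptor genes Cckar and Cckbr, and the neurotensin receptor genes Ntsr1 and Ntsr2. Under the platform annotation 3 of the 6 symbols had a probe set, Cck with 1, Cckbr with 2 and Ntsr2 with 1, which gave 3 of the 4736 genes and 4 of the 8740 probe sets, controls left aside. Cckar, Nts and Ntsr1 are not analysed here. Neurons of the substantia nigra pars compacta (SNc, 8 arrays, numbered 1 to 8) and of the ventral tegmental area (VTA, 7 arrays, numbered 1 to 6 and 8) had been isolated by laser capture, as the labels state, and their total RNA was measured on an Affymetrix rat array. The series title names Parkinson's disease, which strikes dopamine neurons of the SNc harder than their VTA neighbours. No treatment or mutation is named, and the labels do not give the strain, age or number of the rats, how neurons were recognised, or whether 1 rat gave RNA to more than 1 array. The p-values therefore reflect array-to-array spread alone, part of which may be technical.

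Cholecystokinin and neurotensin are short peptides cut from longer precursors and released from large secretory vesicles. Many dopamine neurons of the rat midbrain make cholecystokinin beside dopamine. Cckbr is the receptor type found over most of the brain, while Cckar is the main type of the gut and of a few brain nuclei. Ntsr1, the high-affinity neurotensin receptor, is known from midbrain dopamine neurons. Ntsr2, the low-affinity and levocabastine-sensitive receptor, is known from both neurons and astrocytes. The cholecystokinin receptors and Ntsr1 signal mainly through Gq proteins, phospholipase C and release of calcium from the endoplasmic reticulum.

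A value here is the deposited signal of a probe set, a group of short probes against 1 transcript, on a linear intensity scale. Differences are SNc minus VTA of log2(signal + 16), with the standard error (SE) or the 95% interval of limma, a linear model fitted across 5244 probe sets, and p-values adjusted by the Benjamini-Hochberg method over all of them. An adjusted p under 0.05 was called. Levels of different probe sets are not compared as amounts of RNA, because probes differ in brightness. Sums of signals given below are led by their brightest probe sets. Signals had a 2% trimmed mean of 150.2 on every array, and the median signal per array ran from 38.0 to 45.3 in SNc and from 42.3 to 46.8 in VTA. Correlation with the other arrays was weakest for VTA 5 and VTA 8, with medians of 0.910 and 0.919, and ran from 0.926 to 0.941 elsewhere. Dopamine neuron genes were bright in both regions, with Th, tyrosine hydroxylase, at 6615 ± 527.2 in SNc and 7193 ± 769.7 in VTA, and Slc6a3, the dopamine transporter, at 7245 ± 602.7 in SNc and 5782 ± 978.8 in VTA (SD, n = 8 and 7).

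Of the 4 member probe sets, all 4 were bright enough to be tested and 1 was called, that of Ntsr2, with a higher signal in SNc. Over all tested probe sets 1.98% were called in either direction, and 0.839% were called as higher in SNc. All calls together divided into 44 higher in SNc and 60 higher in VTA, and into 67 and 37 after each array was centred on its median. Cck and both probe sets of Cckbr were not called. The members are taken in turn, first the neurotensin receptor, then the cholecystokinin peptide and its receptor.

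**Figure D1:**
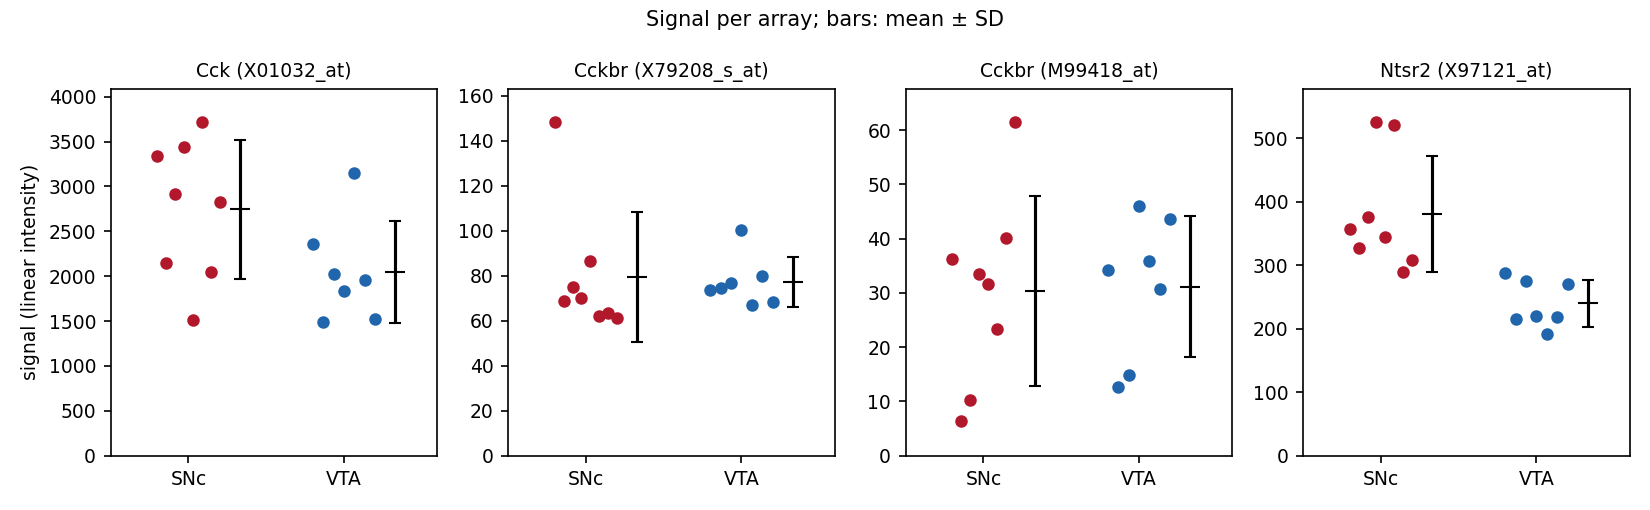
Signal of the 4 member probe sets, 1 panel each, on linear axes that start at 0; each point is 1 array of SNc (red, n = 8) or VTA (blue, n = 7), and black bars give the mean ± SD. The Ntsr2 points of SNc all lie above those of VTA, with 289.9 as the lowest SNc value and 287.3 as the highest VTA value, while the Cck and Cckbr points overlap.

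For the 2 receptor genes that were measured, one called and one not, the 250 bases before the annotated start in RefSeq (build GRCr8, plus strand of both genes) are shown for comparison, 5′ to 3′. Capitals mark matches on either strand to the TATA box TATAAA, the CCAAT box, the GC box GGGCGG, the E-box CANNTG, the nuclear receptor half-site AAGGTCA or TGACGT of the cyclic AMP response element, and no matches overlap. Ntsr2 lies at chr6:45152845-45153094 and Cckbr at chr1:169183328-169183577.
Ntsr2: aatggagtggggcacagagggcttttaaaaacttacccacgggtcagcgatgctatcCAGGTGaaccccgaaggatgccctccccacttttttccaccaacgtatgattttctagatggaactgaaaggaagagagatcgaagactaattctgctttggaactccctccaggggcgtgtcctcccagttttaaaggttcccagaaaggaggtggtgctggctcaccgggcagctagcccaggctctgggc
Cckbr: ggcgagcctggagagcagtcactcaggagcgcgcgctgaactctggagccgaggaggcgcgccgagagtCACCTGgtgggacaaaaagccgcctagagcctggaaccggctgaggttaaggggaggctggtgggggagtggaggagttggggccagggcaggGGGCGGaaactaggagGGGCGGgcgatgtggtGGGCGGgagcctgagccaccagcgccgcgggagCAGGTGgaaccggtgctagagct
The Cckbr window held 3 matches to GGGCGG, the GC box, and 2 to CANNTG, the E-box. The Ntsr2 window held 1 match to CANNTG and 0 to GGGCGG. Among all 33469 promoters of this length in the table, 30.5% held a GC box and 65.5% an E-box. Neither window held the TATA box, found in 12.9% of all promoters, the CCAAT box (34.0%), the half-site (3.99%) or the cyclic AMP response element letters (6.95%). The share of G and C was 53.2% in the Ntsr2 window and 68.8% in the Cckbr window, with a median of 51.2% over all promoters. The arrays did not measure promoters, and these matches are a description of the letters in the windows.

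Ntsr2 had 1 probe set, X97121_at. Its signal in SNc was 289.9 at the lowest, 351.2 at the median and 525.0 at the highest, and in VTA 192.2, 219.7 and 287.3. The 2 sets of arrays did not overlap, a separation seen in 0.858% of all tested probe sets in either direction and in 0.42% with SNc higher. The gap between them was narrow, since SNc 7 at 289.9 lay next to VTA 1 at 287.3. Within SNc, SNc 4 and SNc 6 stood above the others, at 525.0 and 520.8, and the remaining 6 lay between 289.9 and 375.2. VTA 5, one of the 2 arrays with low correlations, held the lowest Ntsr2 signal of all 15.

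The mean Ntsr2 signal was 381.1 ± 91.6 in SNc and 239.8 ± 37.0 in VTA (SD, n = 8 and 7). The log2 difference was 0.62 (SE 0.15, limma adjusted p = 0.0428), a ratio of 1.53 with a 95% interval from 1.23 to 1.91. By unadjusted p it ranked 87 among the 5244 probe sets. An exact two-sided permutation test of the same difference over the 6435 ways to divide the arrays gave an unadjusted p = 0.000311. That value follows from the lack of overlap given above and was not adjusted over the 5244 probe sets. The Ntsr2 difference lay between 0.54 and 0.71 under every one of the 28 alternative settings. Of these, the filters, the variance setting and the permutation test cannot change it, nor can a mean over 1 probe set. The adjusted p lay so near the threshold that the call was lost in 15 of 27 alternative limma fits, among them those without any 1 of 12 arrays, with an adjusted p from 0.0235 to 0.0899 over the 27. Only leaving out SNc 7, SNc 8 or VTA 8 kept the call among the 15 fits that each dropped 1 array.

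**Figure D2:**
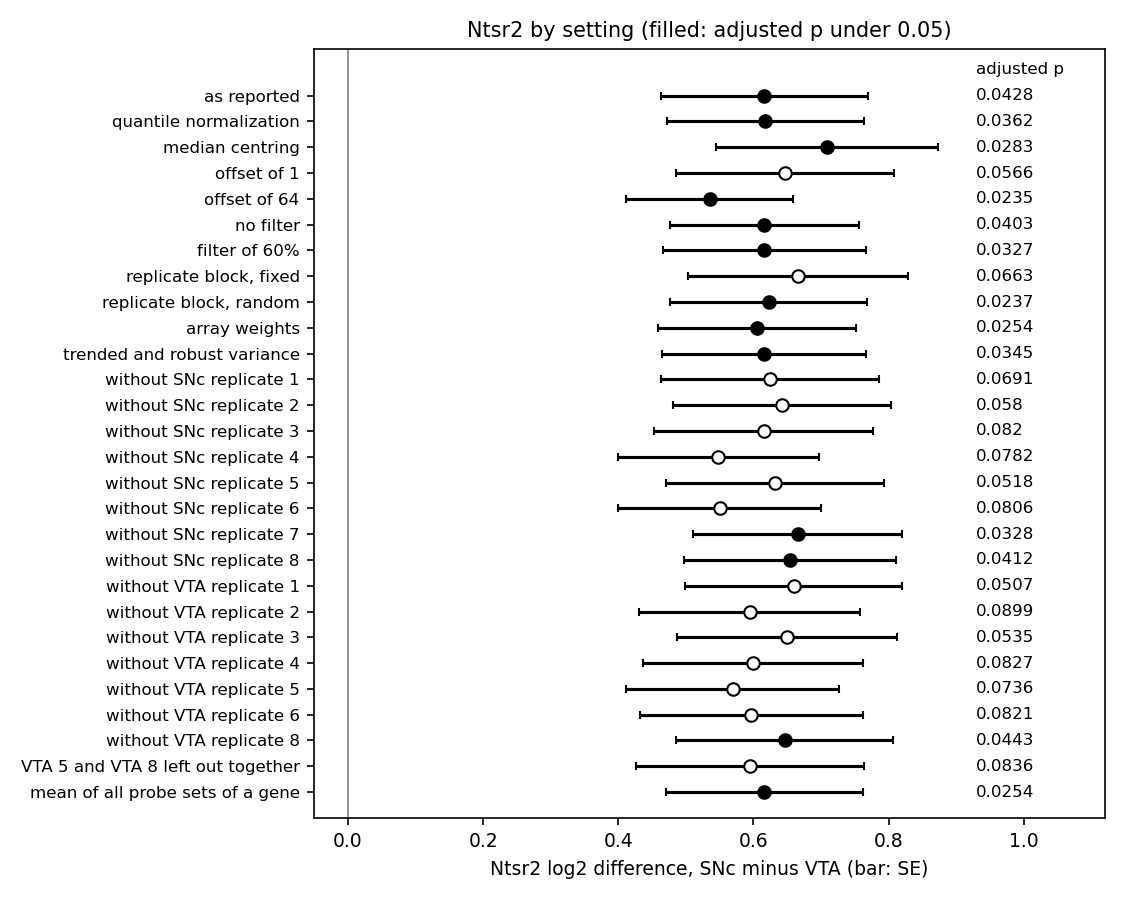
Ntsr2 log2 difference (SNc minus VTA, points, with bars of 1 SE) in the reported fit and in 27 alternative limma fits, with the adjusted p at the right; filled points have an adjusted p under 0.05. All differences lie between 0.54 and 0.71, and filled and open points mix, since adjusted p runs from 0.0235 to 0.0899.

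Because Ntsr2 is also known from astrocytes, markers of astrocytes were measured beside it. Of 6 astrocyte markers listed 5 had a probe set, all 5 were tested and 0 were called by limma, with 0 at an unadjusted p under 0.05. Among 3221 genes 2.17% were called and 15.5% had an unadjusted p under 0.05. The median log2 difference of the 5 markers was -0.30, against -0.04 over those 3221 genes, each represented by its brightest probe set. That -0.30 was the value of Slc1a2, a dim probe set at 46.5 in SNc and 61.5 in VTA. S100b, a calcium-binding protein, was at 1344 ± 238.6 in SNc and 1499 ± 459.8 in VTA. Aqp4, the water channel of astrocyte end-feet, was at 31.8 ± 18.1 in SNc and 63.5 ± 45.6 in VTA, which differed by -0.60 on the log2 scale (SE 0.31, adjusted p = 0.363). Its signal was low, down to 11.5 in SNc and 14.2 in VTA. Slc1a3, the astrocyte glutamate transporter, was at 400.4 ± 70.2 in SNc and 394.6 ± 91.5 in VTA. The summed signal of the 5 ran from 1355 to 2156 in SNc and from 1534 to 3008 in VTA, with medians of 1955 in SNc and 1938 in VTA, so the regions overlapped. S100b made up 63.7% to 78.0% of this sum in SNc and 68.3% to 77.3% in VTA, so the sum mostly follows that probe set. Gfap, a defining astrocyte marker, is not analysed here.

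Markers of GABA neurons were measured as well. Of 4 tested, 2 were called as higher in SNc, as were 0.993% of all genes: Gad1, which makes GABA, at 753.5 ± 179.9 in SNc and 279.1 ± 123.1 in VTA (adjusted p = 0.00154), and Pvalb, a calcium buffer, at 141.2 ± 47.3 in SNc and 53.7 ± 38.0 in VTA (adjusted p = 0.0282). The other 2 were not, Gad2 with a log2 difference of 0.23 (adjusted p = 0.723) and Slc32a1, the vesicular GABA transporter gene, with 0.07 (adjusted p = 0.901). A second, dimmer probe set of Slc32a1 gave -0.42 (adjusted p = 0.162). The summed signal of the 4 ran from 908.6 to 1848 in SNc and from 550.9 to 1022 in VTA. The part of these cells in the Ntsr2 difference was not tested. In captured tissue, fewer cells of a type and less RNA per cell cannot be told apart. Oligodendrocyte markers were bright in both regions, with a summed signal over 5 genes from 5269 to 9490 in SNc and from 7686 to 11315 in VTA. By limma 0 of those 5 were called, while Mobp alone reached an unadjusted p under 0.05. Over all genes these shares were 2.17% and 15.5%. All 5 differences were negative, with a median of -0.17 in log2, against -0.04 over all genes.

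**Figure D3:**
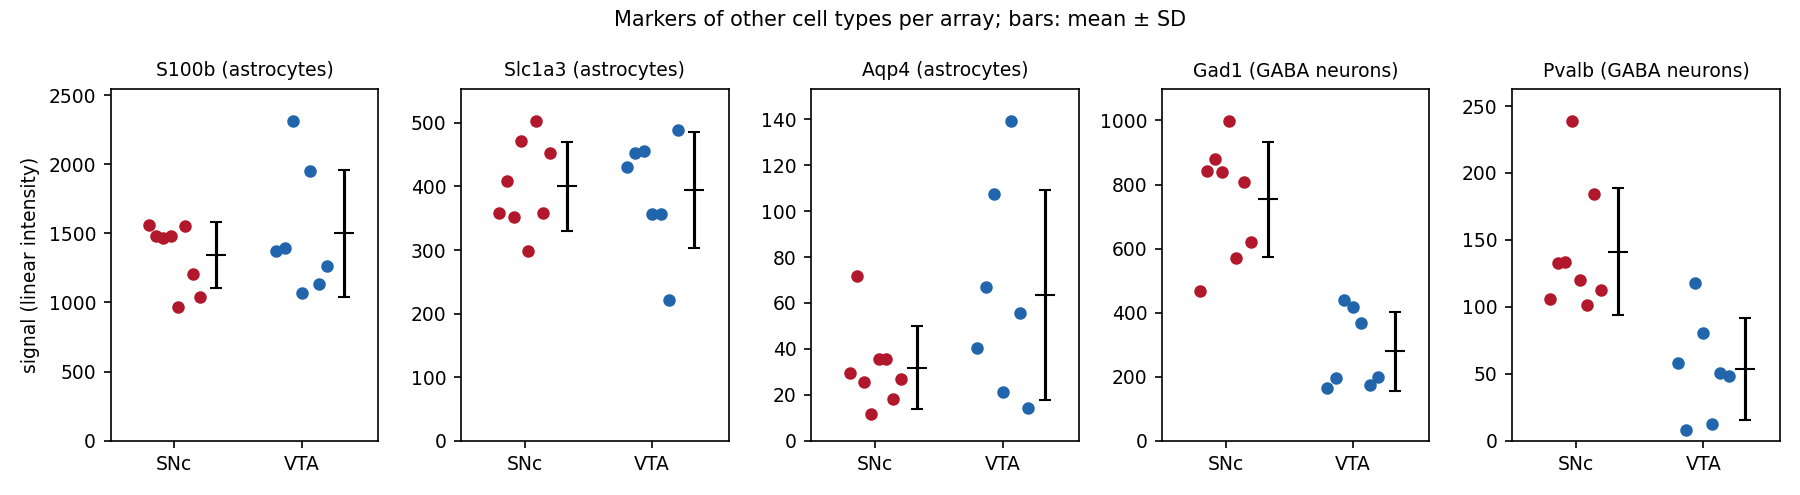
Signal of 3 astrocyte markers (S100b, Slc1a3, Aqp4) and 2 GABA neuron markers (Gad1, Pvalb) on linear axes that start at 0; points are arrays of SNc (red, n = 8) or VTA (blue, n = 7) and black bars give the mean ± SD. The astrocyte markers overlap between regions, and every SNc point of Gad1 lies above every VTA point.

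Cck, the peptide precursor gene, had a high signal on every array of both regions. Its probe set, X01032_at, had a signal in SNc of 1514 at the lowest, 2871 at the median and 3714 at the highest, and in VTA of 1485, 1962 and 3154. The regions overlapped, although 7 of 8 SNc arrays lay above the VTA mean and 6 of 7 VTA arrays lay below the SNc mean. SNc 5 was the lowest SNc array and lay near the bottom of the VTA range, while VTA 5 was the highest VTA array and lay above the SNc median.

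Cck averaged 2744 ± 771.3 in SNc and 2047 ± 572.4 in VTA (SD, n = 8 and 7), a log2 difference of 0.41 (SE 0.20, limma adjusted p = 0.344). The 95% interval of the SNc to VTA ratio ran from 0.987 to 1.78, so it holds no difference at its lower end and a sizeable excess in SNc at its upper end. The exact permutation p was 0.0807, unadjusted. Without SNc 5 the difference was 0.52 and without VTA 5 also 0.52, with adjusted p = 0.170 and 0.205. Cck was higher in SNc under all 28 alternatives, by 0.32 to 0.52, though here too some of them cannot change the difference. It was called under none, with an adjusted p from 0.170 to 0.513 and an unadjusted p of 0.0598 in the reported fit.

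Cckbr, the receptor for cholecystokinin that prevails in brain, was measured by a brighter and a dimmer probe set. The name of the brighter, X79208_s_at, carries the ending that Affymetrix gave to probes shared by several transcripts. It had a signal in SNc of 61.1 at the lowest, 69.6 at the median and 148.2 at the highest, and in VTA of 67.2, 74.6 and 100.4. SNc 1 stood alone at 148.2, with the next SNc array at 86.3, and VTA 4 was the highest VTA array at 100.4, with the next at 79.7. The remaining arrays of the 2 regions overlapped. The means were 79.4 ± 29.0 in SNc and 77.1 ± 11.1 in VTA, with a log2 difference of -0.0023 (95% interval -0.33 to 0.33, limma adjusted p = 0.996). Without SNc 1 the difference was -0.12 (adjusted p = 0.684).

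The dimmer Cckbr probe set, M99418_at, ran from 6.35 to 61.4 in SNc and from 12.7 to 46.0 in VTA, with medians of 32.5 in SNc and 34.1 in VTA. On 3 SNc arrays and 2 VTA arrays it lay below 26.3, the mean signal that a probe set needed to be tested. Its log2 difference was -0.07 (95% interval -0.58 to 0.45, adjusted p = 0.923). The intervals of the 2 probe sets leave room for a ratio of SNc to VTA between 0.793 and 1.26 by the brighter and between 0.667 and 1.36 by the dimmer. The 2 probe sets of this gene did not follow each other from array to array. Their Pearson r was 0.06 over 8 SNc arrays (exact permutation p = 0.868) and 0.19 over 7 VTA arrays (exact permutation p = 0.713), with Spearman's rho of -0.24 and -0.07 (exact permutation p = 0.582 and 0.906). Adjusted over 8 relations, p was 0.890 for both r and 0.906 for both rho. Without the 2 arrays farthest from the median of the brighter probe set, r was -0.68 in SNc and -0.48 in VTA.

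Members were also set against each other within each region. Cck and Ntsr2 had a Pearson r of 0.65 over the 8 SNc arrays (exact permutation p = 0.0824, adjusted 0.660) and a Spearman's rho of 0.79 (exact permutation p = 0.0279, adjusted 0.223). Arrays SNc 4 and SNc 6, high in Ntsr2, were also the 2 highest in Cck, at 3440 and 3714. Over the 7 VTA arrays, r was -0.26 and rho 0.11 (exact permutation p = 0.588 and 0.840, adjusted 0.890 and 0.906). Without the 2 arrays farthest from the Cck median, r was 0.74 in SNc and 0.21 in VTA. Neither relation passed over the 8 computed. Those of the brighter Cckbr probe set with Cck and Ntsr2 had r between -0.24 and 0.08, with exact permutation p from 0.580 to 0.890 and an adjusted p of 0.890 for each.

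The genes whose signal followed each member most closely were sought among 3218 other genes, over all 15 arrays after the region means were taken off. For Cck they were Rpl36, a ribosomal protein (r = 0.91), Wiz, a zinc finger protein (r = 0.86), and Me1, the cytosolic malic enzyme (r = 0.82). For Ntsr2 the highest were Shld2, of the shieldin complex (r = 0.80), Med4, a subunit of the Mediator complex (r = 0.79), and Cept1, an enzyme of phospholipid synthesis (r = 0.77). Med4 was itself called as higher in SNc (log2 difference 0.82, adjusted p = 0.0366). For the brighter Cckbr probe set they were Chrng, a subunit of the muscle nicotinic receptor, C5ar1, a complement receptor, and Dnajc1, a co-chaperone (r = 0.93, 0.85 and 0.84). For the dimmer they were Opn1sw, a cone opsin, Ret, the kinase of the GDNF receptor, and Taf9b, a transcription factor subunit (r = 0.88, 0.84 and 0.84). With so many genes and 15 arrays of shared scaling, these are descriptions only.

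Genes of peptide processing and sorting, granins of the secretory vesicles among them, were described from a list of 21 genes, of which 15 were tested. Of the 15, 2 were called, both higher in VTA and 0 higher in SNc, against 2.17% of 3221 genes called in either direction, 0.993% as higher in SNc and 1.18% as higher in VTA. An unadjusted p under 0.05 was reached by 7 of the 15, against 15.5% of the 3221 genes. The list's median log2 difference was -0.06, against -0.04 over all genes. Qpct makes the cyclic first residue that neurotensin carries, and finishes other peptides in the same way. Its signal in SNc was 5.93 at the lowest, 46.1 at the median and 58.7 at the highest, and in VTA 82.6, 102.6 and 153.3, so the regions did not overlap. The mean was 41.4 ± 17.6 in SNc and 110.0 ± 25.0 in VTA, a log2 difference of -1.20 (SE 0.22, adjusted p = 0.00542). Qpct was 2.29-fold higher in VTA on this scale, and the call held in all 26 alternative limma fits that tested it, with a log2 difference from -1.58 with an offset of 1 to -0.73 with an offset of 64.

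Scg2, a granin of the secretory vesicles, was also called, at 1177 ± 283.8 in SNc and 1922 ± 260.5 in VTA (a difference of -0.73 in log2, adjusted p = 0.0321), though it missed the threshold without any 1 of VTA 1 to VTA 5 (adjusted p up to 0.0673), without VTA 5 and VTA 8 together (0.0530), with an offset of 1 (0.0518) and after median centring (0.0700). Chgb, another granin, was at 5949 ± 889.3 in SNc and 4283 ± 846.7 in VTA, which missed the threshold (log2 difference 0.48, adjusted p = 0.0909) and passed it in 6 of 27 alternative limma fits, among them median centring (adjusted p = 0.0396) and the fit without VTA 8 (0.0446). Tpst2, named here after its values were seen, adds sulfate to tyrosines, a step that cholecystokinin needs for full activity at Cckar. It was at 137.4 ± 44.3 in SNc and 198.9 ± 37.1 in VTA and was not called (log2 difference -0.52, SE 0.19, adjusted p = 0.168). Sort1, or sortilin, which also binds neurotensin, had a representative probe set at 17.1 in SNc and 17.8 in VTA, too dim to be tested. It too was named after its values were seen. So were the list's remaining genes with an unadjusted p under 0.05, which went both ways and were not called by limma. Pcsk2 was lower in SNc (log2 difference -0.60, adjusted p = 0.114). Furin (0.48, adjusted p = 0.126) and Pcsk6 (0.58, adjusted p = 0.249) were higher in SNc, though a second, dimmer Furin probe set gave -0.03 (adjusted p = 0.974).

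Peptidases, among them enzymes that break down neurotensin and cholecystokinin, made up a list of 12 genes, of which 9 were tested. By limma 0 were called, while 1 gene reached an unadjusted p under 0.05. These shares were 2.17% and 15.5% over all genes. The median log2 difference was -0.16, against -0.04 over all genes. The 3 with the smallest p were Dpp4, dipeptidyl peptidase of the cell surface, at 33.6 ± 22.8 in SNc and 53.5 ± 6.11 in VTA (a difference of -0.63 in log2, adjusted p = 0.226), Thop1, thimet oligopeptidase, which cuts neurotensin (-0.49, adjusted p = 0.363), and Ace, angiotensin-converting enzyme (-0.48, adjusted p = 0.366). All 3 had low signals, and their arrays overlapped between the regions.

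For the Gq pathway 37 genes were listed, a list that also held G protein-gated potassium channels. Of the 21 tested, 2 were called as higher in SNc and 1 as higher in VTA, where 0.993% and 1.18% of all genes were. An unadjusted p under 0.05 was reached by 6 of the 21, and by 15.5% of all genes. The list's median log2 difference was 0.04, against -0.04 over all genes. Itpr1, the calcium release channel opened by inositol trisphosphate, had a signal in SNc of 662.8 at the lowest, 754.5 at the median and 1132 at the highest, and in VTA of 301.0, 378.5 and 576.6. The regions did not overlap (log2 difference 0.93, SE 0.15, adjusted p = 0.00217). Its other 4 probe sets were too dim to be tested. Prkcd, a protein kinase C isoform activated by diacylglycerol, was at 353.3 ± 40.8 in SNc and 149.1 ± 33.3 in VTA (a difference of 1.18 in log2, adjusted p = 0.000208). A second, dimmer Prkcd probe set was at 114.8 ± 18.6 in SNc and 20.7 ± 11.3 in VTA (1.89 in log2, adjusted p = 7.45e-06). The size of the Prkcd difference thus depends on the probe set. Kcnj5, a G protein-gated potassium channel, was lower in SNc, at 23.8 ± 18.7, against 93.1 ± 33.5 in VTA (a difference of -1.53 in log2, adjusted p = 0.00217). Its SNc mean lay below 26.3, so it was bright enough to be tested only through its VTA signal, and the size of the difference is not well measured. Each of these 3 calls held in every alternative limma fit that tested the gene, though the size for the dim Kcnj5 ran from -2.25 with an offset of 1 to -0.84 with an offset of 64. These genes serve many receptors beside those for cholecystokinin and neurotensin.

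Kinases, arrestins and RGS proteins, which switch off signalling of such receptors, were listed with 20 genes, of which 9 were tested. By limma 0 were called, while 2 genes reached an unadjusted p under 0.05, and the median log2 difference was -0.08. Over all genes 2.17% were called, 15.5% reached that unadjusted p, and the median was -0.04. Grk6, a receptor kinase, was at 203.1 ± 64.7 in SNc and 274.0 ± 45.0 in VTA (a difference of -0.44 in log2, adjusted p = 0.229). Grk4, of the same family, differed by -0.30 (adjusted p = 0.311) and Rgs8, an accelerator of G protein shut-off, by 0.56 (adjusted p = 0.456).

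**Figure D4:**
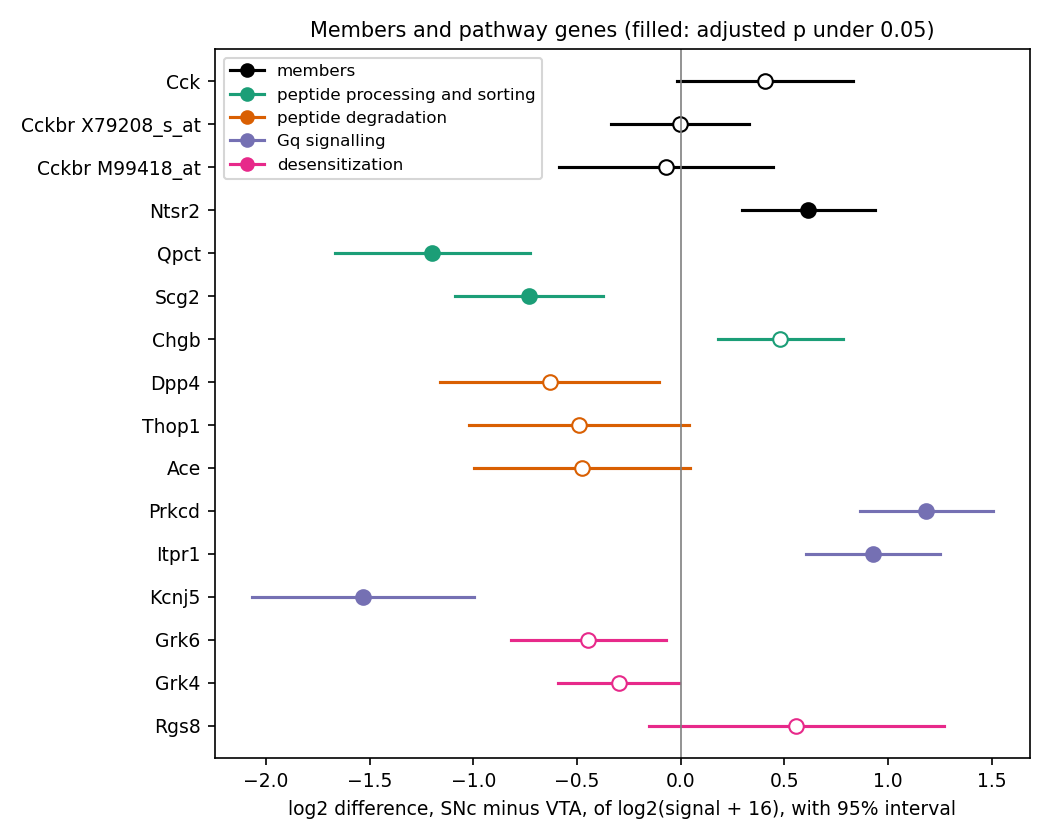
Log2 difference, SNc minus VTA, with the 95% interval, for the 4 member probe sets (black, top) and the named genes of the 4 pathway lists (coloured); filled points have an adjusted p under 0.05. Among the members only Ntsr2 is filled, at 0.62, and among the others Qpct at -1.20, Scg2 at -0.73, Prkcd at 1.18, Itpr1 at 0.93 and Kcnj5 at -1.53.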

How the data were processed

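Total RNA of laser-captured neurons was profiled on 8 SNc and 7 VTA arrays. The authors deposited 1 intensity per probe set and array. The trimmed means of the deposited intensities all rounded to 150.2, so by the values these had been scaled to a common level. The software and background correction behind them are not given in the sources used. Detection calls did not enter. The number of arrays limits the precision.

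Of 8799 probe sets 59 controls were left out. Among the 8740 that remained, 7006 had 1 symbol in the platform annotation, 308 had several and 1426 had none. Gene identifiers of 6985 were found in the gene table of assembly GRCr8, used for names and promoters. The deposited intensities were turned into log2(intensity + 16), the dimmest 40% by mean (below a signal of 26.3) were left out, and the remaining 5244 were fitted in R 4.3.3 by limma 3.58.1 (two-sided moderated test of lmFit and eBayes with region as the single term). A gene with several probe sets stood in the lists by its brightest. The procedure was tested on simulated data, where it recovered 14% of log2 changes of 0.5 and 84% of changes of 1. Differences near 0.5 can therefore often go uncalled.

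The members and lists were chosen with earlier results of these data known. The genes named are the members, the called genes of each pathway list and in any case its 3 with the smallest p, and the 3 genes with the highest correlation with each member. Cell type markers came from lists, of which the single genes described, like Tpst2, Sort1, Pcsk2, Furin and Pcsk6, were picked after their values were seen. Alternatives were offsets of 1 and 64, median centring or quantile normalization, a filter of 60% or none, thresholds of 0.01 and 0.10, array weights, the replicate number as a block, a robust variance with trend, an exact permutation test, the mean of a gene's probe sets, and leaving out arrays.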

Additional observations from a re-analysis of the deposited data

Results flagged for a closer look

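Within a region, an array was marked where its gap to the nearest other array took up more of the region's range than Dixon's critical value allows. Of 34 such groups (17 probe sets in 2 regions) 4 were marked, and chance marks about 1 in 20 where values are normally distributed, which linear signals need not be. The brighter Cckbr probe set was at 148.2 in SNc 1, with the next SNc array at 86.3, and at 100.4 in VTA 4, with the next VTA array at 79.7. Prkcd was at 79.2 in VTA 5, with the next VTA array at 144.1. Itpr1 was at 1132 in SNc 1, with the next SNc array at 858.6. The Itpr1 and Prkcd calls held without these arrays, and Cckbr was not called with or without SNc 1 or VTA 4.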

How the results depend on the processing

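Of the 4 member probe sets, Cck kept its direction and stayed uncalled under all 28 alternatives. Filter, variance and permutation settings leave a difference as it is. The Ntsr2 difference of 0.62 kept its direction under all 28 and lost its call with an offset of 1 (0.65, adjusted p = 0.0566), without VTA 5 and VTA 8 together (0.60, adjusted p = 0.0836), with the replicate block as a fixed term and SNc 7 left out for want of a partner (0.67, adjusted p = 0.0663), and whenever 1 of 12 arrays was dropped (0.55 to 0.67 over all 15). The adjusted p without SNc 7 alone was 0.0328, with the same difference of 0.67. As a random replicate block the call held (adjusted p = 0.0237). The brighter Cckbr probe set, at -0.0023, turned positive after quantile normalization (0.086), median centring (0.090), an offset of 64 (0.0052), and the fixed (0.029) and random (0.0016) replicate block, and ran from -0.12 to 0.053 on leaving out 1 array. The dimmer turned positive after quantile normalization (0.014), median centring (0.023) and without VTA 5 and VTA 8 (0.047), ran from -0.19 to 0.067 on leaving out 1 array, and was not tested under the 60% filter. No Cckbr value was called. The cause of these changes was not tested. The count of 104 called probe sets was 60 with an offset of 1, 184 with array weights, 40 at a threshold of 0.01, 208 at 0.10, and from 56 to 115 on leaving out 1 array, with 56 to 69 without SNc 2, SNc 3, SNc 4, VTA 1, VTA 2, VTA 3, VTA 5 or VTA 6. It was 99 with the fixed and 153 with the random block. Arrays with the same number correlated in their deviations by 0.044 to 0.25, over 0.1 in 5 of 7 pairs. Of 7 SNc arrays 3 correlated best with the VTA array of their own number, and the random block had a correlation of 0.12. No chance level was computed for these values, so the numbers are neither shown to pair the arrays nor shown not to. The dim Cckbr probe set limits what can be said of small differences in that gene.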
